A study of Mus musculus with 2 samples.

Results

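Cycling cells were sought among the stromal cells of epididymal white adipose tissue (eWAT) as cells with at least 1 unique molecular identifier (UMI, 1 captured transcript) of at least 2 of 5 genes, Mki67, Top2a, Birc5, Cdk1 and Ube2c. They numbered 68 of 2174 barcodes with at least 200 genes, with 14 of 1057 in the LFD library and 54 of 1117 in the HFD library. Each cycling cell was given an identity from lineage genes in a fixed order. A cell with at least 10 UMIs of Dcn was a fibroblast, then one with at least 3 UMIs of Cdh5 and Cldn5 together was endothelial. A cell with at least 10 UMIs of C1qa, C1qb and C1qc together was then a macrophage, one with at least 2 UMIs of Cd3d, Cd3e and Cd3g together was a T cell, and the rest were called other. By this order 30 cycling cells were macrophages, 20 were other, 10 were endothelial, 5 were fibroblasts and 3 were T cells. The cells were thus chosen by measured UMIs of the 5 genes and of the lineage genes, whose levels are given as a description.

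Both libraries came from the stromal vascular fraction of the eWAT of C57BL/6 mice, male C57BL/6J according to the methods, with no other allele or agent given. The mice received a low-fat diet (LFD) or a high-fat diet (HFD) for 24 wk from 6 wk of age, as the sample titles and treatment labels give it, although the protocol text names the low-fat diet for both libraries and the methods give the age at collection as 24 wk. Each diet has 1 droplet library, the number of mice in it is not given in the sources used here, and so no test between diets was possible. Intervals below are exact, at 95%, and cover counting error only.

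A dividing cell copies its DNA in S phase and separates the copies in mitosis, and different genes serve the 2 steps. Mki67 encodes the proliferation antigen that coats mitotic chromosomes, Top2a the topoisomerase that untangles DNA, and Birc5 survivin of the chromosomal passenger complex. Cdk1 encodes the kinase that drives entry into mitosis, and Ube2c an enzyme that marks mitotic cyclins for destruction. In adipose tissue, macrophages are known both to arrive from blood monocytes and to divide in place.

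Genes that peak in mitosis often carry a cell cycle homology region (CHR) and CCAAT boxes near their start, whereas genes of DNA replication often carry E2F sites. To show these letters in the genes that selected the cells, 3 of the 5 promoters are printed from RefSeq, from 250 bases before to 50 bases after the start, on the strand of the gene. Capitals mark a CHR match (TTTGAA) or a CCAAT match (CCAAT) on either strand, and Birc5 is shown because it holds neither.
Mki67 (GRCm38.p6 chr7:135716330-135716629, minus strand): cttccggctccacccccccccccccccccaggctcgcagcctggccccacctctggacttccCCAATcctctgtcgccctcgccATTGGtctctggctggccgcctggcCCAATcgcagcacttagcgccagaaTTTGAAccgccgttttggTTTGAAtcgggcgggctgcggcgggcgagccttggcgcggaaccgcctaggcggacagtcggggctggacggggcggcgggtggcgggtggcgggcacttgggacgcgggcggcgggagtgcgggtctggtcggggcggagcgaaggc
Cdk1 (GRCm38.p6 chr10:69352863-69353162, minus strand): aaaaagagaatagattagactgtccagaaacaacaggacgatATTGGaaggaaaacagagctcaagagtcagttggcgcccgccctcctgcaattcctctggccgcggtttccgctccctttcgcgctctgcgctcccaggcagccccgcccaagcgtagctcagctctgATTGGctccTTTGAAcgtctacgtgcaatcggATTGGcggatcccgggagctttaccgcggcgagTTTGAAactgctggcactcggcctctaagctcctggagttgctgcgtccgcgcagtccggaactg
Birc5 (GRCm38.p6 chr11:117848987-117849286, plus strand): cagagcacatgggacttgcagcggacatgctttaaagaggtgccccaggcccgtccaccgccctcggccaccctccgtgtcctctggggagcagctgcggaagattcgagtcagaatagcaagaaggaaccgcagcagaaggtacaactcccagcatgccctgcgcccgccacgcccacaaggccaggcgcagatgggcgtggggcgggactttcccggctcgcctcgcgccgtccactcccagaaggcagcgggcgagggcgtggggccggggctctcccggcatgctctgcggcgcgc
Matches were counted on both strands, with overlapping matches allowed, and the letters of no motif hold those of another. Both a CHR and a CCAAT match were present in 4 of the 5 promoters, Birc5 being the exception, and in 8.97% of 27025 genes with a promoter in the table. An E2F match (TTTCCCGC or TTTGGCGC) was present in 0 of the 5 and in 1.80% of all genes. Of a list of 60 mitosis genes, 49 had a promoter and 33 of these (67.3%) held a CHR match, against 20.2% of all genes. Of a list of 44 replication genes, 32 had a promoter, 7 (21.9%) held a CHR match and 12 (37.5%) an E2F match. The motif counts describe these windows and were not tied to the UMI counts.

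The 5 selecting genes were close to all or nothing in most cells. Of the 2174 barcodes, 1957 had none of the 5 genes, 149 had 1, 17 had 2, 13 had 3, 5 had 4 and 33 had all 5. Cells just outside the threshold, with 1 gene, had a median of 8.48 UMIs of the mitosis list per 10000 UMIs, and cells just inside, with 2 genes, had 13.1. Cells with all 5 genes had 112. The 17 cells at the threshold thus resembled their neighbours more than the 33 cells with every gene. A cycling cell held between 2 and 153 UMIs of the 5 genes, with a median of 18. Mki67 was seen in 61 of the 68 cells, Top2a in 55, Birc5 in 49, Cdk1 in 48 and Ube2c in 45.

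Cells with a single gene were most numerous among HFD macrophages, where 51 of 321 (15.9%, 12.1 to 20.4%) had exactly 1 of the 5 genes, compared with 11 of 230 (4.78%, 2.41 to 8.40%) in LFD. In the 296 non-cycling HFD macrophages, Mki67 alone gave 59 UMIs in 33 cells, with at most 5 in a cell. Top2a gave 9 UMIs and Birc5 only 1 in the same cells.

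The 2 libraries had medians of 6523 UMIs per barcode in LFD and 6598 in HFD, over totals of 7356278 and 8412325 UMIs for 1113 and 1144 barcodes. No barcode was shared between the libraries. Cycling cells were deep, with a median of 12150.5 UMIs against 6471.5 in non-cycling cells. When cells were called after thinning to 2000 UMIs, the 35 cells still called had a median of 13738 UMIs before thinning against 7299 in the others. The limits of the study, 200 to 2500 genes and under 5% mitochondrial UMIs, kept 29.7% of all barcodes but 7 of the 68 cycling cells (10.3%), since 53 were over the gene limit and 33 over the mitochondrial limit. Of the 68 cells, 4 met more than 1 identity and 2 were called doublets by Scrublet. A pair of HFD cells of other identity were shallow, with 1575 and 973 UMIs, and had 45.7% and 28.4% mitochondrial UMIs.

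Cycling cells took up 4.83% (3.65 to 6.26%) of the HFD barcodes and 1.32% (0.726 to 2.21%) of the LFD barcodes. At 2000 UMIs per cell the shares were 2.73% (1.79 to 3.97%) of 953 HFD cells and 1.04% (0.475 to 1.96%) of 869 LFD cells. The HFD share was the higher before and after thinning, and the intervals of the libraries overlapped after thinning but not before. The HFD share of each identity applied to the LFD mix gave 4.11%, and the LFD shares applied to the HFD mix gave 1.35%, as a description of these 2 libraries. With 1 library per diet, a difference between diets and a difference between libraries cannot be told apart.

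**Figure D1:**
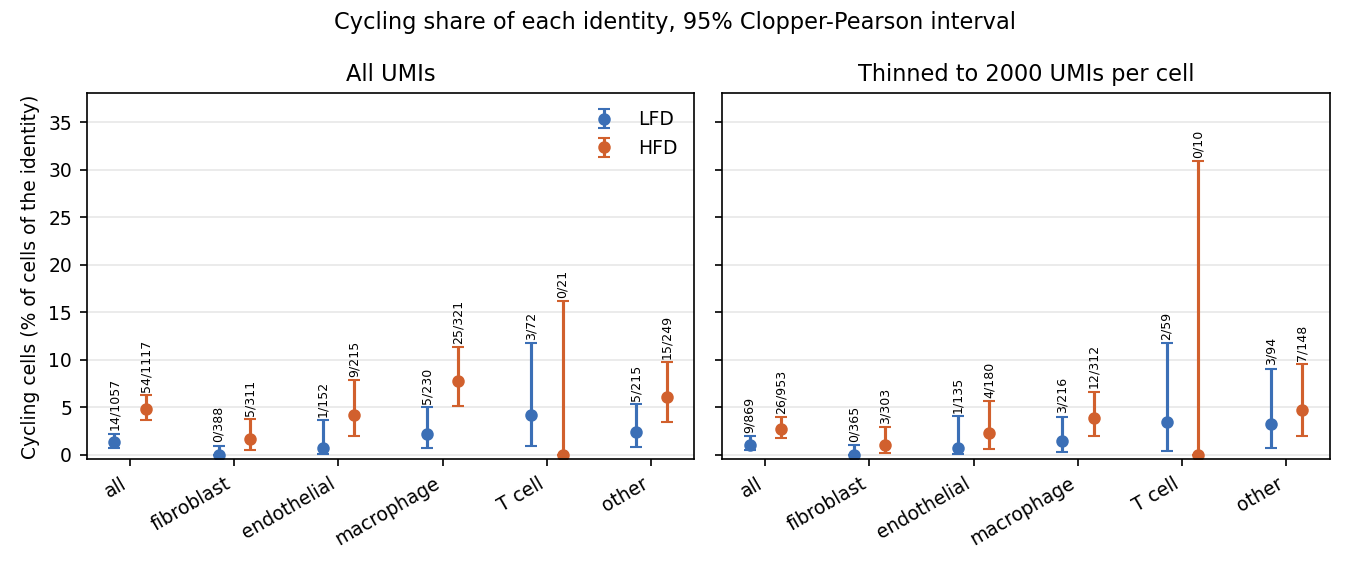
Cycling cells as a percentage of the cells of each identity in the LFD (blue) and HFD (orange) libraries, with all UMIs on the left and after thinning to 2000 UMIs per cell on the right. Points are single libraries, bars are exact 95% binomial intervals and labels give cycling cells over all cells; the highest HFD share with all UMIs was that of macrophages, 25 of 321.

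With all UMIs the highest HFD share was that of macrophages. Of the HFD macrophages 25 of 321 (7.79%, 5.10 to 11.3%) were cycling, compared with 5 of 230 LFD macrophages (2.17%, 0.710 to 5.0%). After thinning these were 12 of 312 (3.85%, 2.0 to 6.62%) and 3 of 216 (1.39%, 0.287 to 4.01%), and the intervals overlapped. Cells of other identity followed, with 15 of 249 (6.02%, 3.41 to 9.74%) in HFD and 5 of 215 (2.33%, 0.759 to 5.34%) in LFD. After thinning they had 7 of 148 (4.73%, 1.92 to 9.50%) in HFD, above macrophages, although 101 of the 249 were too shallow to be thinned. In LFD these were 3 of 94 (3.19%, 0.663 to 9.04%), with 121 of the 215 too shallow. Endothelial cells had 9 of 215 (4.19%, 1.93 to 7.80%) in HFD and 1 of 152 (0.658%, 0.0167 to 3.61%) in LFD. After thinning they had 4 of 180 (2.22%) and 1 of 135 (0.741%). Fibroblasts had 5 of 311 (1.61%, 0.524 to 3.71%) in HFD, and 3 of 303 (0.990%) after thinning. In LFD 0 of 388 fibroblasts were cycling (0 to 0.946%). T cells had 3 of 72 (4.17%, 0.868 to 11.7%) in LFD and 0 of 21 (0 to 16.1%) in HFD, an interval that holds the LFD one. After thinning these were 2 of 59 (3.39%) and 0 of 10, since 11 of the 21 HFD T cells were too shallow.

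Each cycling cell was then placed by its UMIs of the replication list (Mcm2 to Mcm7, Pcna and other genes of DNA copying) and of the mitosis list (cyclins B, kinetochore and spindle genes). The 5 selecting genes peak around mitosis, so the selection bears on the mitosis list more than on the replication list. Across the 68 cells the replication list ranged from 0 to 103 UMIs per 10000, with a median of 24.1, and the mitosis list from 5.97 to 213, with a median of 43.8. Replication UMIs exceeded mitosis UMIs in 16 of the 68 cells. These were 8 of 30 macrophages, 6 of 20 other cells, 1 of 10 endothelial cells, 1 of 3 T cells and 0 of 5 fibroblasts. Outside the rule, 38 non-cycling HFD cells reached the median replication level of the cycling HFD cells (19.7 per 10000), 12 of them macrophages and 15 of other identity. In LFD 11 non-cycling cells reached the cycling median of 33.4. For the mitosis list the same count was 7 in HFD and 0 in LFD. Both the bar and the non-members follow from a selection on mitosis genes, and so the counts of the 2 lists are not compared.

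**Figure D2:**
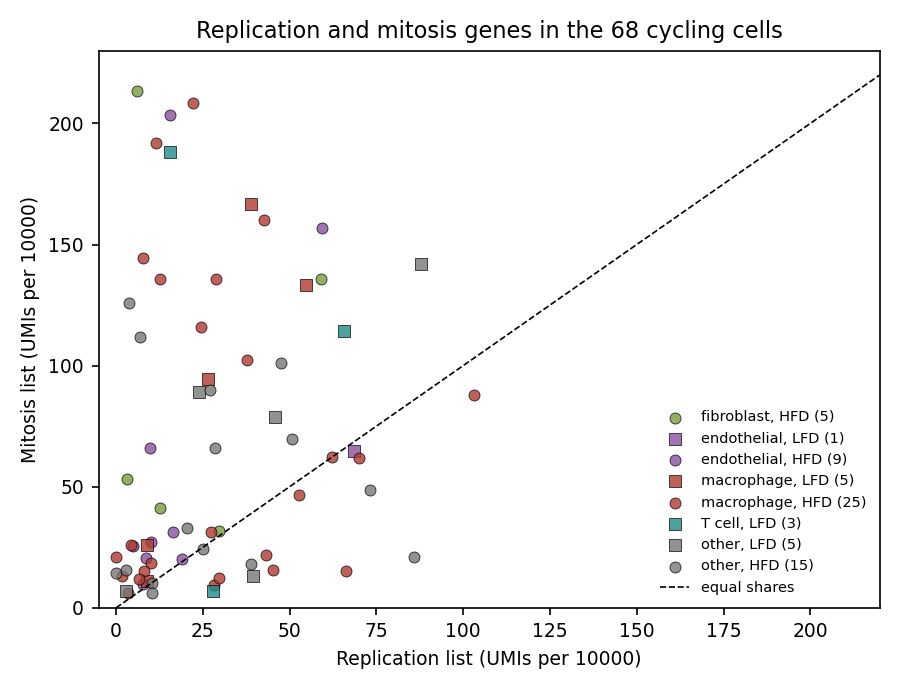
UMIs of the replication list (horizontal) and of the mitosis list (vertical) per 10000 UMIs in each of the 68 cycling cells, coloured by identity, with squares for LFD and circles for HFD. Most points lie above the dashed line of equal shares, and 16 cells lie below it.

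As a group, cycling macrophages of the HFD library were higher in genes of both steps. Beside 296 non-cycling HFD macrophages, levels are counts per 1000000 UMIs (CPM), summed over the cells of a group, and a gene was called when its CPM ratio was at least 2 or at most 1/2. Of 5872 genes with at least 50 UMIs, 286 (4.87%) had a ratio of at least 2 and 411 (7%) a ratio of at most 1/2. The 5 selecting genes are left out of these counts, and values of the mitosis list are a description. Ratios of at least 2 were seen for 22 of the 25 mitosis genes that passed the UMI minimum of 60 listed, with a median log2 ratio of 4.01, against 0.07 over all genes. They were seen for 20 of 22 replication genes of 44 listed (median log2 ratio 2.09), for 6 of 7 nucleotide synthesis genes of 10 (2.29), for 16 of 19 chromatin and tubulin genes of 20 (1.60) and for 2 of 4 replication-dependent histone genes of 66. A gene of these lists passed the minimum largely through the cells in which it was high.

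Among the replication genes, Mcm5 of the replicative helicase stood at 98.0 CPM (74.6 to 126) in cycling and 20.2 (14.9 to 26.9) in non-cycling HFD macrophages. Pcna, the sliding clamp of the polymerases, was 2.57 times as high (1.92 to 3.43) in HFD and 2.76 times (1.48 to 4.81) in LFD. Tk1, the thymidine kinase of the salvage pathway, had 79 UMIs in cycling and 18 in non-cycling HFD macrophages, a ratio of 16.9. Among the mitosis genes, Ccnb2, a B-type cyclin, had 58 UMIs in 11 of 25 cycling and 5 UMIs in 5 of 296 non-cycling cells. Cenpf, a kinetochore protein, had 107 and 4 UMIs. Pttg1, securin, did not follow, at 28.2 and 28.8 CPM.

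Genes outside the 5 selecting genes were ranked over both libraries where they had at least 50 UMIs in each library and ratios on one side of 1 in both, which left out mitosis genes with fewer UMIs and higher ratios. Of the genes ranked, the highest ratio was that of Hist1h1b, a linker histone made during DNA copying, with 192 UMIs in 15 of the 30 cycling macrophages and 0 in 521 non-cycling ones. It was at least 346-fold higher when the absent count is set to 3 over the group. Stmn1, a tubulin-binding protein, was next in that ranking at 931 CPM against 43.5 (ratio 21.4, 18.0 to 25.6), seen in 27 of 30 cells. The rest of the first 10 were the condensin subunits Smc2 and Smc4, the nuclear lamina protein Tmpo, the ribonucleotide reductase subunit Rrm1, the chromatin proteins Hmgn2, H2afv and Hmgb2, and Tmsb10, a regulator of actin. Their ratios ran from 4.45 for Hmgb2 to 11.5 for Smc2, and each was above 1 in both libraries. In LFD, where only 5 cells cycled, Stmn1 was at 1296 CPM against 25.

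Several of the 10 lowest ratios were those of genes of resident macrophages. Cd209f, a C-type lectin, had 4 UMIs in the 5 cycling LFD macrophages and 7 in the 25 cycling HFD macrophages, compared with 2689 and 1834 in the non-cycling cells of the same libraries. Lyve1, a hyaluronan receptor, had 0 and 12 UMIs in cycling cells and 1313 and 873 in non-cycling ones. The others were Rnase2a, Pla2g2d, Cd209g, Cd209a, Cd209b, Mmp9, Colec12 and Pdgfc, with between 1 and 5 UMIs in the 30 cycling cells of both libraries together and between 177 and 1280 in the 521 non-cycling cells. Each of the 10 was seen in at most 3 of the 30 cycling macrophages.

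Of the 16 resident genes measured, 15 had a ratio of at most 1/2 in HFD and 14 in LFD, where the shares over all genes were 7% and 17.4%. The median log2 ratios were -2.27 and -2.59, and without 4 very deep HFD cells described below the HFD median was -1.55, with 13 of the 16 at most 1/2. Timd4, a phosphatidylserine receptor of resident cells, had 0 UMIs in the 30 cycling macrophages, while 79 of 225 non-cycling LFD and 34 of 296 non-cycling HFD macrophages had a UMI. Cd163, a haemoglobin scavenger receptor, was present in 3 of 5 LFD and 3 of 25 HFD cycling cells, compared with 158 of 225 and 109 of 296. Mrc1, the mannose receptor, was present in 5 of 5 and 25 of 25 cycling cells, at 567 CPM (420 to 750) and 387 CPM (339 to 440), against 1989 (1916 to 2065) and 1060 (1018 to 1102) in non-cycling cells. Without the deep cells it was at 613 CPM in cycling HFD cells. Pf4, a chemokine, was the gene of the list above 1/2 in HFD, at 1079 against 1838 CPM. Csf1r, the receptor for the growth factor Csf1, was at 304 against 633 CPM in HFD and 347 against 1012 in LFD. The C1q genes set the identity at a fixed number of UMIs, which deeper cells meet at a lower CPM, and so C1qa is given as a description, at 1367 against 4581 CPM in HFD and 1157 against 5344 in LFD.

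**Figure D3:**
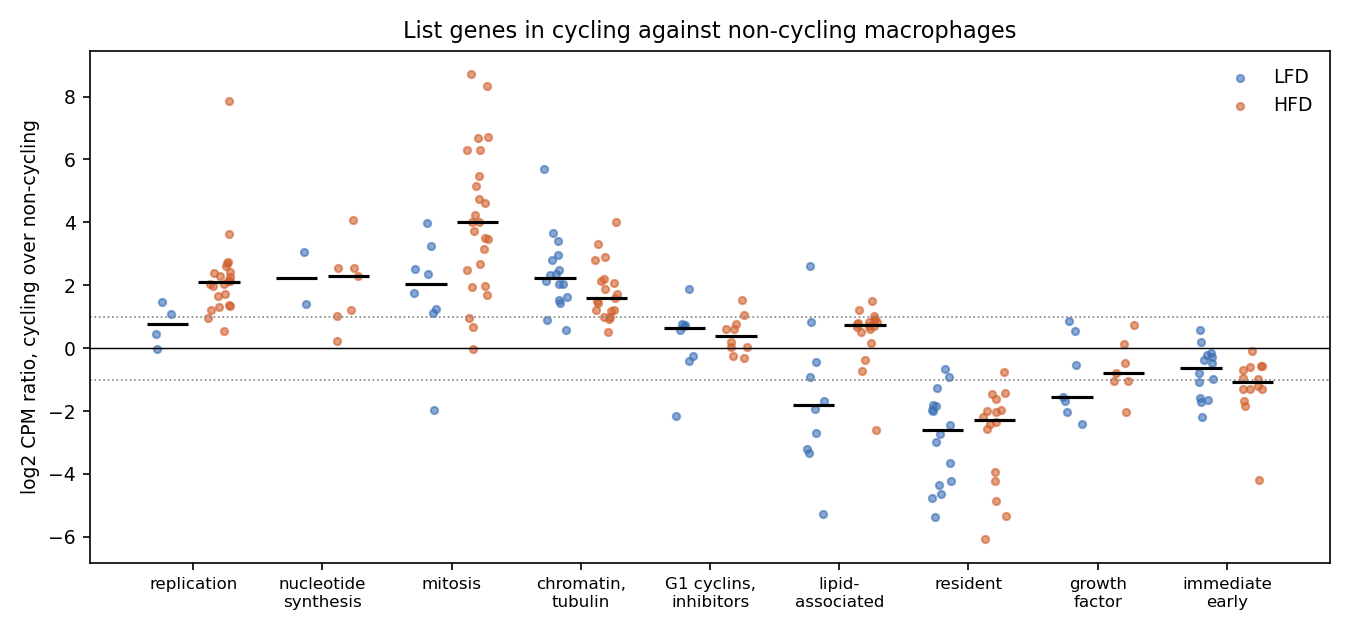
Log2 CPM ratio of cycling over non-cycling macrophages for each gene of 9 lists with at least 50 UMIs, in LFD (blue, 5 cycling cells) and HFD (orange, 25 cycling cells), with a black line at the median and dotted lines at a ratio of 2 and 1/2. Replication, nucleotide, mitosis and chromatin genes lie mostly above 0 and resident genes below it in both libraries, while lipid-associated genes lie mostly above 0 in HFD (median 0.74) and below it in LFD (median -1.80).

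Lipid-associated genes, which mark macrophages around dying adipocytes in obesity, differed from cell to cell. In HFD 3 of the 18 genes had a ratio of at least 2 and 1 a ratio of at most 1/2, with a median log2 ratio of 0.74, beside 4.87% and 7% of all genes. Gpnmb, a glycoprotein of lipid-laden cells, was 2.81 times as high (2.60 to 3.03) and Lgals3, galectin-3, 2.30 times (2.23 to 2.37), and Fabp5, a fatty acid binding protein, 2.04 times (1.89 to 2.20). Apoe, a lipid carrier, was at 2252 CPM (2134 to 2375) in cycling and 13559 CPM (13410 to 13710) in non-cycling cells. It was the lowest of the list, with a ratio of 0.17. In LFD, the 5 cycling cells had 6 of 10 measured genes at a ratio of at most 1/2 and 1 at or above 2 (median log2 ratio -1.80), beside 13% and 17.4% of 3974 genes at or above 2 and at or below 1/2. That gene was Lpl, the lipoprotein lipase, at 2523 against 409 CPM. Its UMIs in the 5 cells were 29, 26, 1, 41 and 121, and without the cell with 121, which had 2 UMIs of the selecting genes, the level was 1443 CPM.

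The HFD levels rested on few cells. Of the 25 cycling HFD macrophages 4 held over 50000 UMIs, from 53574 to 75633, and these gave 43.9% of the UMIs of the group. No non-cycling macrophage was as deep. Without them, 0 of the 18 lipid-associated genes had a ratio of at least 2, 2 had a ratio of at most 1/2, and the median log2 ratio was 0.14. Over 5566 genes the shares were then 4.87% and 7.17%. Gpnmb stood at 3105 CPM in the 4 cells, 1072 in the 21 other cycling cells and 700 in the non-cycling cells. Mmp12, a macrophage elastase, was at 2333, 231 and 681 CPM, so that its direction differed between the 4 cells and the others. Apoe was low in both, at 832 and 3364 CPM. Cd9, a tetraspanin, was alike in both, at 454 and 423 CPM against 267. The 4 cells were each assigned a single identity and none was called by Scrublet. The part of their depth in these levels was not tested.

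**Figure D4:**
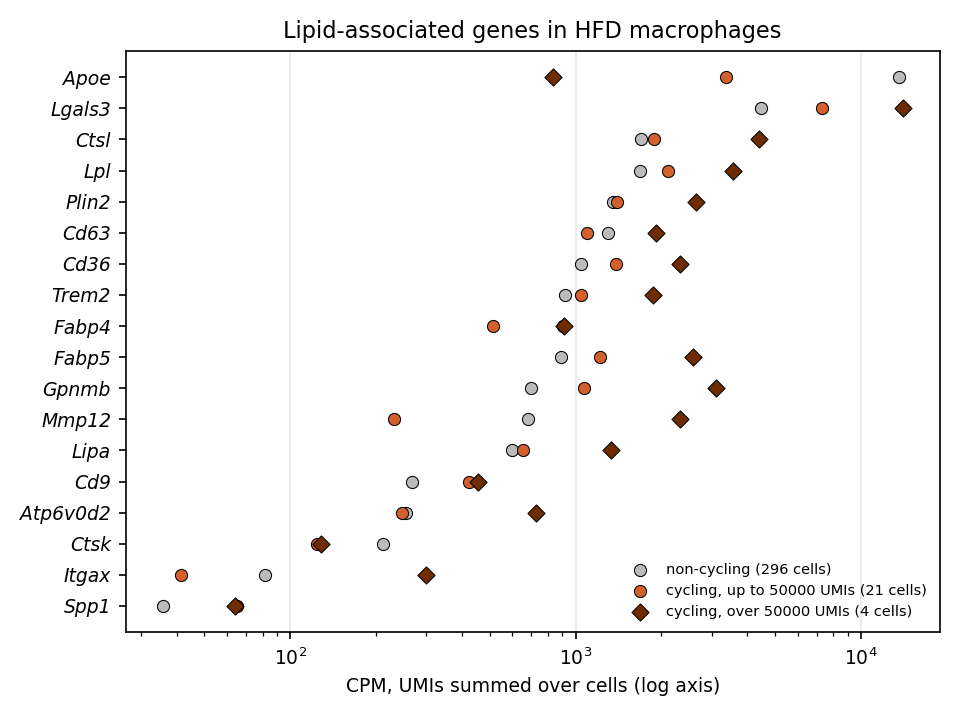
Level of the 18 lipid-associated genes in HFD macrophages, as CPM of UMIs summed over cells on a log axis, for 296 non-cycling cells (grey), 21 cycling cells with up to 50000 UMIs (orange) and 4 cycling cells above it (brown diamonds). The 4 deep cells stand highest for genes such as Gpnmb and Mmp12, and Apoe is lower in both cycling sets than in non-cycling cells.

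Cell by cell, lipid-associated genes took 35.5 to 771 UMIs per 10000 in the 25 cycling HFD macrophages, with a median of 126, below the median of 226 in non-cycling cells. Over summed UMIs the share was 327 against 306, and 242 against 306 without the 4 deep cells. Apoe was the largest gene of this sum in non-cycling cells. With Apoe left out, the summed share was 304 against 171, and 208 without the deep cells, while the median cell had 73.3 against 61.6, and 54.0 without the deep cells. Resident genes had a median of 47.7 per 10000 in cycling and 131 in non-cycling HFD cells. Lipid-associated UMIs exceeded resident UMIs in 18 of 25 cycling HFD macrophages (72.0%) and in 162 of 296 non-cycling ones (54.7%). In LFD they did so in 0 of 5 cycling and 33 of 225 non-cycling cells.

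**Figure D5:**
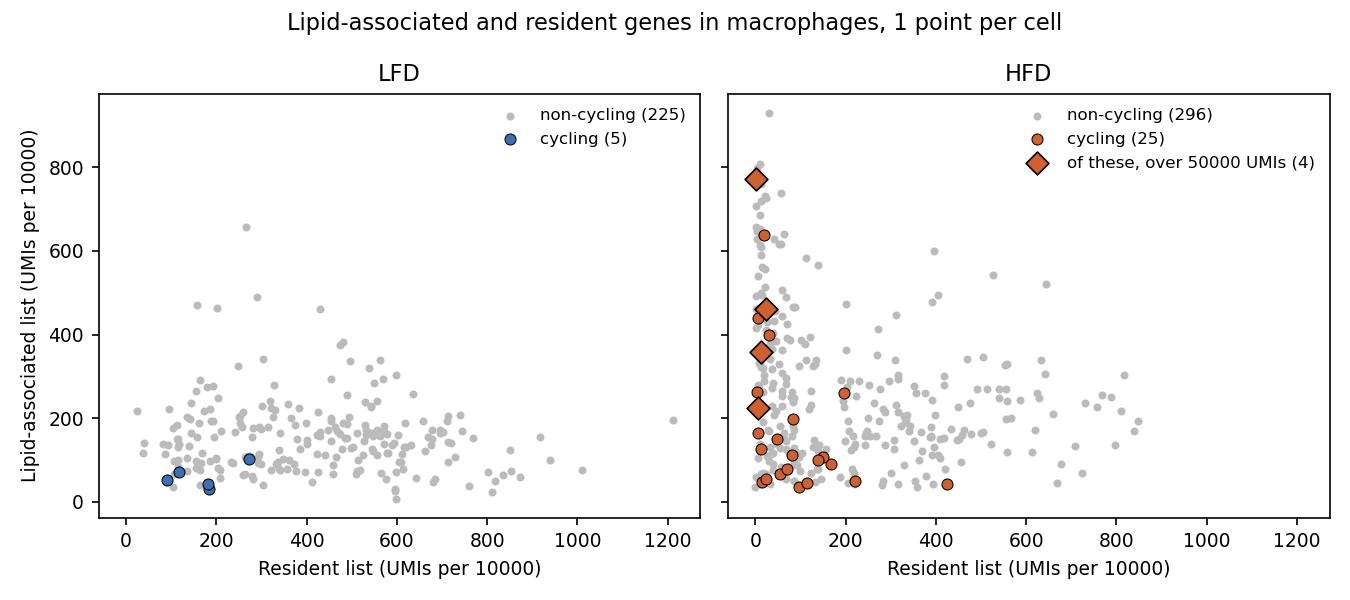
UMIs of the resident list (horizontal) and of the lipid-associated list (vertical) per 10000 UMIs in each macrophage, LFD on the left and HFD on the right, with non-cycling cells in grey and cycling cells coloured. Cycling HFD cells spread from 35.5 to 771 lipid-associated and from 1.68 to 425 resident UMIs per 10000, with a resident median of 47.7, and the 4 diamonds are the cells over 50000 UMIs.

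Single markers were then read cell by cell. Cd9 had a UMI in 18 of 25 cycling cells against 99 of 296 non-cycling cells, with medians of 13738 and 6741 total UMIs. At 2000 UMIs per cell, 7 of 81 HFD macrophages with a Cd9 UMI were cycling (8.64%, 3.55 to 17.0%), compared with 5 of 231 without (2.16%, 0.706 to 4.98%). These intervals overlapped. With cycling cells called on all UMIs, the same split gave 10 of 81 (12.3%) and 15 of 231 (6.49%). Trem2, a lipid receptor, split the same cells into 7 of 168 (4.17%) and 5 of 144 (3.47%), and Lyve1 into 1 of 91 (1.10%) and 11 of 221 (4.98%). Spp1, osteopontin, had a UMI in 9 of 25 cycling and 23 of 296 non-cycling HFD macrophages, but only 10 cells kept a UMI of it after thinning. Among the 21 non-cycling HFD T cells, Cd9 was seen in 1 cell and Trem2, Spp1 and Lyve1 in 0, at a median of 1781 UMIs, a lower depth than that of the macrophages.

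Inhibitors of the cycle were present in cycling macrophages. Cdkn1a, which encodes the inhibitor p21, had a UMI in 5 of 5 LFD and 24 of 25 HFD cycling cells, at 567 CPM (420 to 750) and 420 CPM (370 to 475). Non-cycling cells had 349 CPM (318 to 381) and 367 CPM (343 to 392), and the ratio in HFD was 1.15 (0.991 to 1.32). Without the 4 deep cells, cycling HFD cells were at 506 CPM, a ratio of 1.38 (1.16 to 1.63). After thinning, 6 of 120 HFD macrophages with a Cdkn1a UMI were cycling (5%, 1.86 to 10.6%) and 6 of 192 without (3.13%, 1.16 to 6.68%). Cdkn2a, the p16 locus, had a UMI in 2 of 25 cycling and 4 of 296 non-cycling HFD macrophages, and in 2 of 5 and 3 of 225 in LFD, at unequal depths. Cdkn2c and Cdkn2d, inhibitors of the kinases Cdk4 and Cdk6, were the 2 of 10 measured G1 cyclins and inhibitors at a ratio of at least 2 in HFD (beside 4.87% of all genes), at 2.09 (1.25 to 3.44) and 2.90 (1.86 to 4.47). Cdk4 itself was at 1.72 (1.27 to 2.32).

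Genes of macrophage growth and of the immediate early response were then read in cycling macrophages. The 7 growth factor and differentiation genes measured had a median log2 ratio of -0.79 in HFD and -1.54 in LFD. Csf1r and Maf, a transcription factor, had ratios of at most 1/2 in both libraries. Without the 4 deep cells the HFD ratio of Csf1r went from 0.480 to 0.589 (0.487 to 0.707), above 1/2. Maf was at 98.0 against 403 CPM in HFD and 185 against 992 in LFD. Without the 4 deep cells Maf was at 160 CPM in cycling HFD cells (ratio 0.397, 0.296 to 0.523). Csf2rb, a subunit of the GM-CSF receptor, was the other way, at 105 against 63.2 CPM in HFD, but at 71.1 CPM without the 4 deep cells (ratio 1.12, 0.698 to 1.74). Of 14 immediate early genes, which are known to respond to tissue dissociation, 7 had a ratio of at most 1/2 in HFD (beside 7% of all genes) and 5 in LFD (beside 17.4%), and none was at least 2 times as high in either. Their median log2 ratios were -1.09 and -0.62. Jun was among them, at 186 against 668 CPM and 556 against 1664 CPM. Their part in the other differences was not tested.

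Between diets, lipid-associated genes were higher in HFD in both cycling and non-cycling macrophages. In cycling cells 15 of 17 measured genes were at least 2 times as high in HFD as in LFD (median log2 ratio 3.51), where 15.1% of 2128 genes were at least 2 times as high and 9.63% at most 1/2. In non-cycling cells it was 15 of 18 (3.12), with 4.11% and 5.1% of 6626 genes. Of the 17 ratios in cycling cells, 4 were bounds, since the LFD cells had 0 UMIs of those genes. The 5 cycling LFD cells held 86407 UMIs in all and the 25 HFD cells 602152. A gene could thus pass the UMI minimum through the HFD cells alone, and the counts are a description. The resident list had median log2 ratios of -0.55 in cycling and -1.20 in non-cycling cells, with 3 of 9 and 11 of 16 genes at most 1/2. At least 2 times as high were 1 of the 9 and 0 of the 16. Of 26 mitosis genes, 5 were at most 1/2 in cycling HFD cells and 0 at least 2 times as high. Trem2 had 1 UMI in the 5 cycling LFD cells and 848 in the 25 cycling HFD cells. Gpnmb had 0 and 1183, and was at least 56.6-fold higher in HFD with all cells included. The 4 deep HFD cells held 494 of these Trem2 UMIs and 821 of these Gpnmb UMIs. The other cycling HFD cells stood at 1048 CPM of Trem2 and 1072 CPM of Gpnmb. Lpl was at 2523 CPM (2199 to 2881) in LFD and 2748 CPM (2618 to 2884) in HFD (ratio 1.09, 0.945 to 1.26), and non-cycling cells had 409 and 1682 CPM. The ratio rests on few cells, since Lpl was at 1443 CPM in LFD without its highest cell and at 2108 CPM in HFD without the 4 deep cells.

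The 5 cycling LFD macrophages were not of a kind. Ccr2, the receptor that brings monocytes into tissue, had 16, 2, 0, 39 and 26 UMIs in them, and Cd163 had 1, 11, 16, 0 and 0. The 3 cells rich in Ccr2 were those with at most 1 UMI of Cd163. In the same order, the 5 cells had 3, 1, 1, 3 and 4 of 10 dendritic cell markers. Their depths were 26801, 9300, 11088, 20027 and 19191 UMIs, so that the cells with more dendritic markers were also the deeper ones. Each had at least 6 of 8 macrophage markers. C1qa had 0, 21, 49, 6 and 24 UMIs, C1qb 20, 12, 48, 24 and 27, and C1qc 1, 16, 26, 1 and 3. Whether the fixed C1q minimum let in deep cells of another myeloid kind was not tested, nor its part in the levels above. In sum Ccr2 was at 961 CPM in cycling and 194 in non-cycling LFD macrophages, and at 144 and 194 CPM in HFD, where 13 of 25 cycling cells had a UMI. Without the 4 deep cells the cycling HFD level was 240 CPM (ratio 1.24, 0.964 to 1.57), so that the direction in HFD turned. Ly6c2, of classical monocytes, had a UMI in 0 of 5 and 1 of 25 cycling macrophages.

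Most of the 20 cycling cells of other identity carried myeloid genes. At least 2 of 8 macrophage markers were seen in 2 of 5 LFD and 14 of 15 HFD cells, and at least 2 of 10 dendritic cell markers in 4 of 5 and 9 of 15. Among non-cycling cells of other identity, whose median depth was 2022.5 UMIs against 10922, the shares were 23.8% and 41.9% for macrophage markers and 16.2% and 32.5% for dendritic markers in LFD and HFD. At least 2 of 9 fibroblast markers were seen in 6 of the 20 cycling cells (30%, against 23.9% of non-cycling cells) and at least 2 of 7 NK cell markers in 2. An LFD cell with 3873 UMIs had 0 macrophage and 0 monocyte markers, 1 dendritic, 3 NK cell and 2 ILC2 markers. None of the 20 cells had a UMI of a T cell, B cell, mesothelial, adipocyte, neutrophil or mast cell marker. An LFD cell had 10 UMIs of Xcr1, 5 of Clec9a and 30 of Naaa, the markers of cross-presenting dendritic cells, and an HFD cell had 16 UMIs of Naaa with 2 of Clec9a. Cd209a, of another dendritic subset, had 14 UMIs in an HFD cell and 8 in an LFD cell. Cd68, a lysosomal protein of macrophages, had UMIs in 12 of 15 HFD cells.

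In these HFD cells of other identity 203 of 2913 genes (6.97%) had a ratio of at least 2 to non-cycling cells and 241 (8.27%) a ratio of at most 1/2. Of the measured list genes, 6 of 7 mitosis and 17 of 18 chromatin and tubulin genes were at least 2 times as high. These cells too were chosen on mitosis genes, and list genes could pass the UMI minimum through the cells in which they were high. The list counts are thus a description. Over both libraries the highest ratios outside the selecting genes, among genes with at least 50 UMIs, were those of Hist1h1b, Cdca3, 2810417H13Rik, Cdca8 and Smc2. Cdca3, a mitotic ubiquitin ligase adaptor, had 51 UMIs in 13 of 20 cycling cells and 1 UMI in 444 non-cycling ones. The lowest were Scd1, Car3, Jchain, Fabp4 and Cfd, which encode proteins of adipocytes apart from Jchain, of plasma cells. Car3, Jchain and Cfd had 0 UMIs in the cycling cells.

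The 10 cycling endothelial cells had a median of 7.5 of 8 endothelial markers, but 3 HFD cells among them also had at least 5 of 7 markers of mural cells, with 65, 10 and 34 UMIs of Rgs5. At least 5 mural markers were likewise seen in 95 of the 357 non-cycling endothelial cells (26.6%). Against 357 non-cycling endothelial cells, 418 of 6815 genes (6.13%) had a ratio of at least 2 and 959 (14.1%) at most 1/2. Ratios of at least 2 were seen for 6 of 9 measured mitosis genes, 9 of 14 replication genes and 14 of 20 chromatin and tubulin genes. Without cells holding at least 5 mural or 5 macrophage markers, which left 6 cycling cells, these counts were 4 of 7, 3 of 6 and 12 of 17, and 340 of 4349 genes were at least 2 times as high. The list counts are a description, since the cells were chosen on mitosis genes and list genes could pass the minimum through them. Of the replication list, the single LFD cell had 166 UMIs and the 9 HFD cells had 5 to 34 each. Stmn1 was at 962 CPM (seen in 10 of 10 cells) against 42.9, and Cenpa, the centromere histone, was 15.1 times as high (8.53 to 26.6). The top 3 genes by ratio outside the selecting genes, Mmrn1, Ccl21a and Lyve1, which mark lymphatic endothelium, came from 1 HFD cell with 92, 428 and 84 UMIs of them. The only other Lyve1 UMIs, 2, were in another HFD cell. Cdkn1a was lower in cycling endothelial cells, at 350 against 1011 CPM in HFD. Fmo2, Scd1, Supt6, Ghr and Efnb2 had the lowest ratios, with 1 to 4 UMIs in the 10 cells. Of 14 immediate early genes 7 were at most 1/2, and of 12 G1 cyclins and inhibitors 5 were at most 1/2 and 3 at least 2 times as high. An HFD cell of the 10 also had 42 UMIs of C1qa, 47 of C1qb and 12 of C1qc and was called a doublet by Scrublet.

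The 5 cycling fibroblasts were all from HFD and 2 of them met a second identity. The first held 10 UMIs of C1qa, 24 of C1qb and 36 of C1qc. The second held 12 UMIs of Cdh5 and 49 of Cldn5, and was called by Scrublet. The other 3 cells had 58, 113 and 35 UMIs of Dcn, decorin, and 253, 19 and 41 of Col1a1, a collagen chain. The cell with 253 UMIs of Col1a1 also had 62 of Acta2, smooth muscle actin. Pi16 and Dpp4, of early progenitors, had 2 UMIs each, in a single cell. Dcn set the identity at a fixed number of UMIs, which deeper cells meet at a lower CPM, and so its level is a description. In all, Dcn was at 4339 CPM in the 5 cells and 16071 CPM in the 306 non-cycling HFD fibroblasts. The 2 cells that met a second identity held 16 and 189 UMIs of it. Stmn1 was at 887 against 27.2 CPM.

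The 3 cycling T cells came from the LFD library and had 14, 13 and 6 UMIs of Cd3g, a chain of the T cell receptor complex. Cd8a had 0, 2 and 3 UMIs, and Nkg7, a protein of cytotoxic granules, had 0, 19 and 6, while Cd4 had 0 in each. Their Hmgb2 counts were 83, 39 and 2, and the cell with 2 was also the shallowest, with 2863 UMIs and 2 UMIs of the 5 selecting genes. Summed, Hmgb2 was at 4845 CPM against 357 in 69 non-cycling LFD T cells.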

How the data were processed

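The authors aligned reads to mm10 (GRCm38) with Cell Ranger and deposited the UMI counts of each barcode without normalization. The file header names Cell Ranger 3.0.2, and the methods name another release. Each diet has 1 library, with no replicates. Barcodes with at least 200 genes were kept and doublets retained (Scrublet in scanpy 1.11.5, at an expected rate of 1%, served as an alternative). The cells, the gene lists and the identity rule were chosen with earlier results of these data known. UMIs were summed over cells and scaled to CPM with exact Poisson intervals. Ratios of CPM carry an exact conditional binomial interval and shares a Clopper-Pearson interval. In a ratio of CPM, a count of 0 was bounded by 3 counts. For thinning, 2000 UMIs were kept at random in each cell (1 draw, seed 1) and shallower cells were dropped. Alternatives were other limits on cells and UMIs, 3 of the 5 genes, doublets or cells of several identities left out, and the mean of per-cell CPM. The ratio step was tested on simulated data. Genes needed at least 50 UMIs over the 2 groups.

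Named genes were the 5 selecting genes, the members of the lists, and the 10 highest and 10 lowest ratios in macrophages (at least 50 UMIs in each library and the same direction in both), with 5 and 5 for other and endothelial cells. The ranking skipped the selecting genes and genes of mitochondria, ribosomal proteins, haemoglobins, the Y chromosome and Xist. Mmp12, Ccr2 and the genes named in single fibroblasts, T cells and cells of other identity come from the lists and markers. The list gene Selenop and the markers Trac, Trbc2, Ighm and Iglc2 were not analysed here, and 1 gene of the growth factor list is not reported here. Python 3.11.15, numpy 2.4.6, pandas 2.3.3, scipy 1.17.1 and matplotlib 3.10.9 were used.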

Additional observations from a re-analysis of the deposited data

How the results depend on the processing

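Under the limits of the study (200 to 2500 genes, under 5% mitochondrial UMIs) the cycling share was 0.340% of LFD and 1.70% of HFD barcodes. The share of macrophages that were cycling was then 0 in LFD and 4.11% in HFD, and macrophages were 0 of the 1 cycling LFD cell left. Thinned to 2000 UMIs, the HFD shares were 2.73% of barcodes and 3.85% of macrophages. In HFD macrophages a minimum of 20 UMIs gave 634 genes at or above 2, 778 at or below 1/2 and a mitosis median of 4.76 (log2). A minimum of 100 UMIs gave 139, 235 and 2.58. The minimum changes which genes are tested. Chosen after seeing the data, leaving out cells over 50000 UMIs gave a lipid-associated median of 0.14 and a resident median of -1.55, and the mean of per-cell CPM gave a resident median of -1.55. Leaving those cells out gave 271 genes at or above 2 and 399 at or below 1/2. The mitosis, replication, lipid-associated and resident medians of HFD macrophages kept their sign, but the lipid-associated genes at or above 2 went from 3 to 0 without those cells, and the ratio of Ccr2 went from 0.745 to 1.24. The median lipid-associated share per cell, 100.3 UMIs per 10000 lower in cycling cells (-100.3), was 11.7 higher with Apoe left out, also chosen after seeing the data. By another alternative chosen after seeing the data, endothelial replication genes at or above 2 went from 9 of 14 to 3 of 6 without cells holding 5 mural or macrophage markers, with fewer genes tested. Requiring 3 of the 5 genes or leaving out doublets and cells of several identities moved neither the cycling share of barcodes or macrophages nor the macrophage share of cycling cells beyond its counting interval and no gene count or median ratio of HFD macrophages by over 1.5 times. The shares of the other identities were repeated with thinning alone. No paired analysis was possible because each diet has 1 library.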
